A study of Mus musculus with 15 samples.

Results

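Cholesterol and fatty acid synthesis genes were examined in mouse choroid plexus tumours and in normal choroid plexus, the tissue of the brain ventricles that secretes cerebrospinal fluid. The list held 34 genes chosen for their place in these pathways, with earlier results of these data known. Of these, 31 had a probe set paired with exactly 1 gene symbol, out of 22180 genes measured that way. Acat2, Idi1 and Scd2 had no such probe set and were not analysed here. The 31 genes comprised 18 sterol enzymes, 6 genes of the sterol-sensing system and of sterol transfer, and 7 genes of fatty acid synthesis. Expression was measured on 15 single-colour arrays, with 5 carcinomas, 5 papillomas and 5 samples of normal tissue from different mice on a mixed C57Bl/6 and 129 background. Carcinomas came from mice of genotype Atoh1-Cre; Myc/Myc; p53fl/fl, papillomas from Atoh1-Cre; Myc/Myc mice, and normal tissue from Myc/Myc; p53fl/fl mice without Cre. All 3 groups therefore carried the Myc allele, and papilloma mice differed from the normal-tissue mice both by Cre and by the lack of the floxed p53 allele. Cre is driven from Atoh1 sequence, by its name, and tumours were taken when mice showed signs of disease. Ages were not given in the sources used here.

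Cells make cholesterol from acetyl-CoA through mevalonate, isoprenoid diphosphates and squalene, and the last steps remodel lanosterol into cholesterol. The pathway is governed by sterol regulatory element-binding proteins (SREBPs), transcription factors that Scap carries out of the endoplasmic reticulum unless sterols and the Insig proteins hold them back. Srebf2 mainly drives sterol enzymes and Srebf1 mainly drives fatty acid enzymes. Fatty acids are also built from acetyl-CoA, by Acly, Acaca and Fasn, and are then lengthened and desaturated.

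All array values below are log2 RMA values, and changes are log2 differences with their standard error (SE). A gene was called changed where the limma p, adjusted over all 22180 genes, was under 0.05. The array medians lay between 6.80 and 6.90, and the lowest value of any of the 31 genes on any array was 7.52, so each of them was above the median of every array. Myc was at 8.17 to 8.97 in carcinomas and 8.07 to 8.45 in papillomas, against 7.52 to 7.72 in normal tissue. Epithelial markers of the choroid plexus (8 of 11 measured) averaged 12.58 to 12.91 in carcinomas and 12.68 to 12.93 in papillomas, against 13.18 to 13.22 in normal tissue. Xist and Y-linked transcripts were both present in normal arrays 2 to 5, while no tumour array had both. Each of these normal arrays may therefore hold RNA of more than 1 mouse, which was not tested.

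The lipid synthesis genes did not move as a block. In carcinoma, 10 of the 31 were higher and 10 lower than in normal tissue, and the same counts, 10 higher and 10 lower, were found in papilloma. That was 32.3% in each direction. Of all genes tested, 18.7% were higher and 19.2% lower in carcinoma, and 17.0% were higher and 16.3% lower in papilloma. Among the 14258 genes above the array median in at least 5 arrays, the shares were 27.3% higher and 25.9% lower in carcinoma, and 24.6% higher and 22.5% lower in papilloma, so the share in carcinoma was not far from that of other bright genes. The arrays did not overlap for 6 higher and 6 lower genes in carcinoma, and for 11 higher and 11 lower genes in papilloma. Over all genes, 14.6% were higher and 15.2% lower without overlap in carcinoma, and 16.3% were higher and 15.8% lower in papilloma. The median change of the 31 genes was -0.08 in carcinoma and -0.10 in papilloma, against -0.02 and 0.01 over all genes. Without papilloma arrays 2 and 4, which had the highest neuron marker levels among the tumours, 10 genes were higher and only 5 lower in papilloma. The calls of Pmvk, Sqle, Tm7sf2, Lbr and Msmo1 were lost there (adjusted p = 0.0504 to 0.0819). That fit kept only papilloma arrays 1, 3 and 5. The changes in it were -0.31 for Pmvk, -0.33 for Lbr, -0.40 for Tm7sf2 and -0.44 for Msmo1. With all papilloma arrays they were -0.31, -0.32, -0.43 and -0.52. The fit had fewer arrays as well as less neuron signal, and which of these ended the calls was not tested. The comparisons of carcinoma and papilloma with normal tissue share the same 5 normal arrays.

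**Figure D1:**
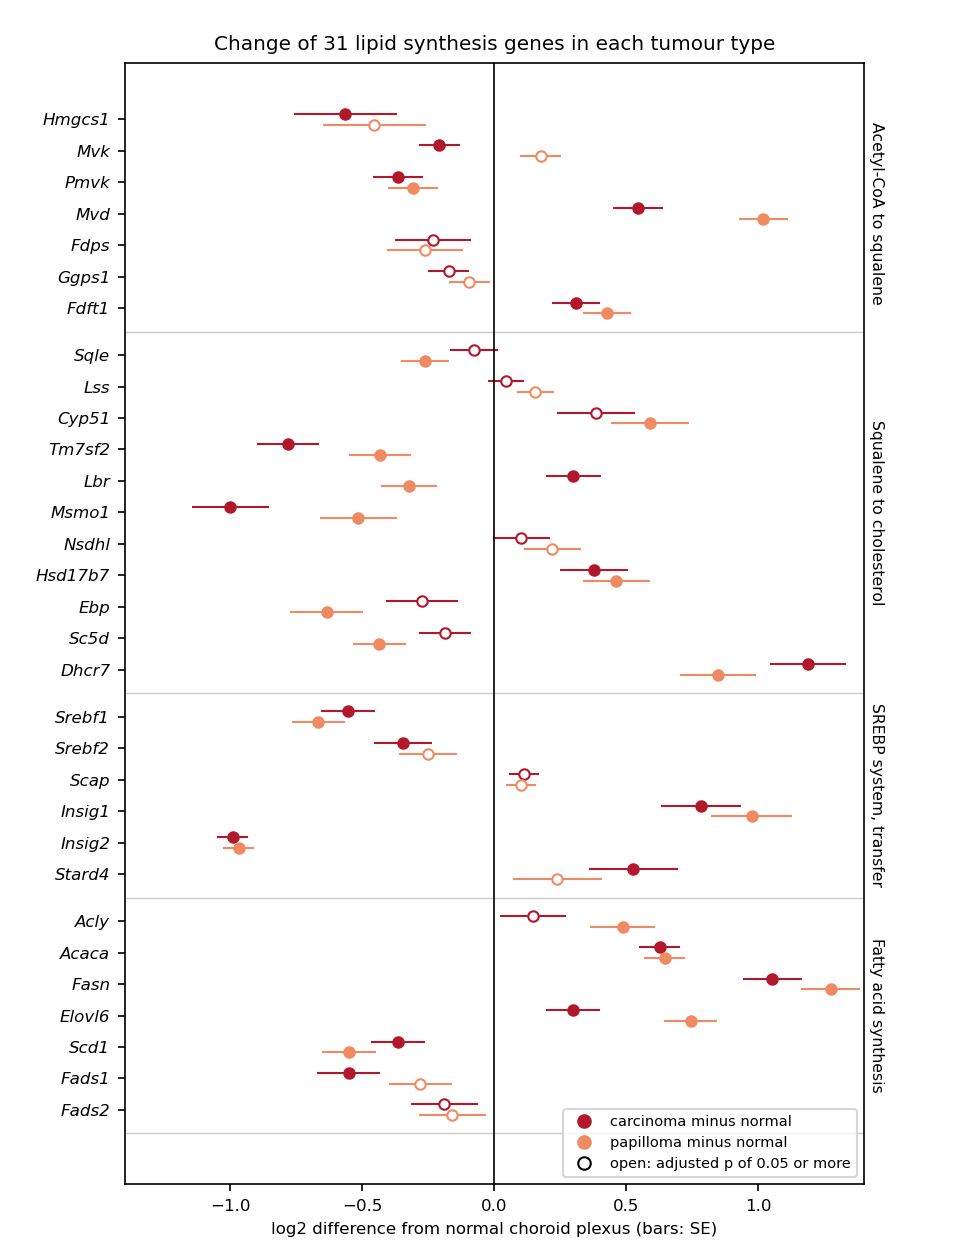
Log2 difference of each of the 31 genes from normal choroid plexus in carcinoma and in papilloma (horizontal axis, bars show SE, n = 5 arrays per group), grouped by pathway. Filled points are past the threshold and open points are not; In carcinoma Dhcr7 and Fasn lie farthest to the right and Msmo1 and Insig2 farthest to the left; in papilloma Fasn and Mvd lie farthest to the right and Insig2 and Srebf1 farthest to the left.

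Among the fatty acid synthesis genes, the chain-building enzymes Fasn, Acaca and Elovl6 rose in both tumour types and Acly rose in papilloma, while the desaturase gene Scd1 fell in both and Fads1 fell in carcinoma. Of the 7 measured, 3 were higher (42.9%) and 2 lower (28.6%) in carcinoma, and 4 were higher (57.1%) and 1 lower (14.3%) in papilloma. The shares of all genes were 18.7% higher and 19.2% lower in carcinoma, and 17.0% and 16.3% in papilloma. Fasn, the fatty acid synthase that assembles palmitate, stood at 11.96, 11.99, 11.47, 11.94 and 11.53 in carcinomas and at 11.85, 11.84, 12.08, 12.23 and 11.995 in papillomas, against 10.74, 10.77, 10.69, 10.65 and 10.77 in normal tissue. Every tumour array was above every normal array, and the normal arrays lay close together. Fasn rose by 1.05 in carcinoma (SE 0.11, 2.08-fold, adjusted p = 1.31e-06) and by 1.27 in papilloma (SE 0.11, 2.42-fold, adjusted p = 1.98e-07). Acaca, the acetyl-CoA carboxylase that makes the malonyl-CoA used by Fasn, rose by 0.63 in carcinoma (adjusted p = 7.11e-06) and by 0.65 in papilloma (adjusted p = 6.51e-06). Its lowest carcinoma value was 9.54 and its lowest papilloma value 9.66, against a highest normal value of 9.29.

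Elovl6, which lengthens the palmitate made by Fasn, measured 12.72 ± 0.24 in carcinoma and 13.17 ± 0.07 in papilloma, against 12.42 ± 0.11 in normal tissue (mean ± SD, n = 5 each). It rose by 0.74 in papilloma (SE 0.10, adjusted p = 2.47e-05), with no overlap of arrays, and by 0.30 in carcinoma (adjusted p = 0.0282), where arrays overlapped. Leaving out normal array 1, normal array 2, carcinoma array 1 or carcinoma array 2 took the carcinoma change to 0.24 to 0.28 and out of the calls (adjusted p = 0.0599 to 0.0773). Acly, the citrate lyase that supplies cytosolic acetyl-CoA, rose by 0.49 in papilloma (adjusted p = 0.00598) and differed by 0.15 in carcinoma (adjusted p = 0.406).

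Scd1, the stearoyl-CoA desaturase that makes monounsaturated fatty acids, stood at 11.86, 11.89, 11.91, 12.32 and 12.06 in carcinomas and at 11.66, 11.96, 12.01, 11.86 and 11.63 in papillomas, against 12.28, 12.56, 12.31, 12.36 and 12.36 in normal tissue. All papillomas were below all normal arrays, and carcinoma array 4 reached into the normal range. Scd1 fell by 0.55 in papilloma (SE 0.10, adjusted p = 0.00048) and by 0.37 in carcinoma (SE 0.10, adjusted p = 0.00936). The close paralogue Scd2 had no probe set of its own in the pairing table, so the probes of Scd1 were not checked against it. Fads1, a desaturase of polyunsaturated fatty acids, was at 12.59, 12.48, 12.60, 12.79 and 11.93 in carcinomas and at 12.64, 12.77, 12.86, 12.76 and 12.71 in papillomas, against 12.95, 13.08, 13.04, 13.04 and 13.03 in normal tissue. No tumour array reached the normal range. Fads1 fell by 0.55 in carcinoma (adjusted p = 0.00152). Its change in papilloma was -0.28 (adjusted p = 0.0883), and passed the threshold without carcinoma array 5, the lowest of the 15 (adjusted p = 0.00425). Its neighbour in the pathway, Fads2, was at 13.13, 13.16, 13.32, 13.43 and 12.55 in carcinomas, at 13.06, 13.29, 13.13, 13.06 and 13.21 in papillomas, and at 13.29, 13.28, 13.34, 13.41 and 13.23 in normal tissue. The groups overlapped and neither tumour type passed the threshold (-0.19, adjusted p = 0.273 in carcinoma, and -0.16, adjusted p = 0.393 in papilloma). Scd1, Fads1, Fads2 and the sterol gene Tm7sf2 lie on chromosome 19, where the median shift of all genes was between -0.19 and 0.05 in the 5 carcinomas, with a median of -0.14. With each chromosome's median shift removed, the carcinoma changes were -0.27 for Scd1 (adjusted p = 0.0291), -0.46 for Fads1 (adjusted p = 0.0017) and -0.69 for Tm7sf2 (adjusted p = 2.01e-05).

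**Figure D2:**
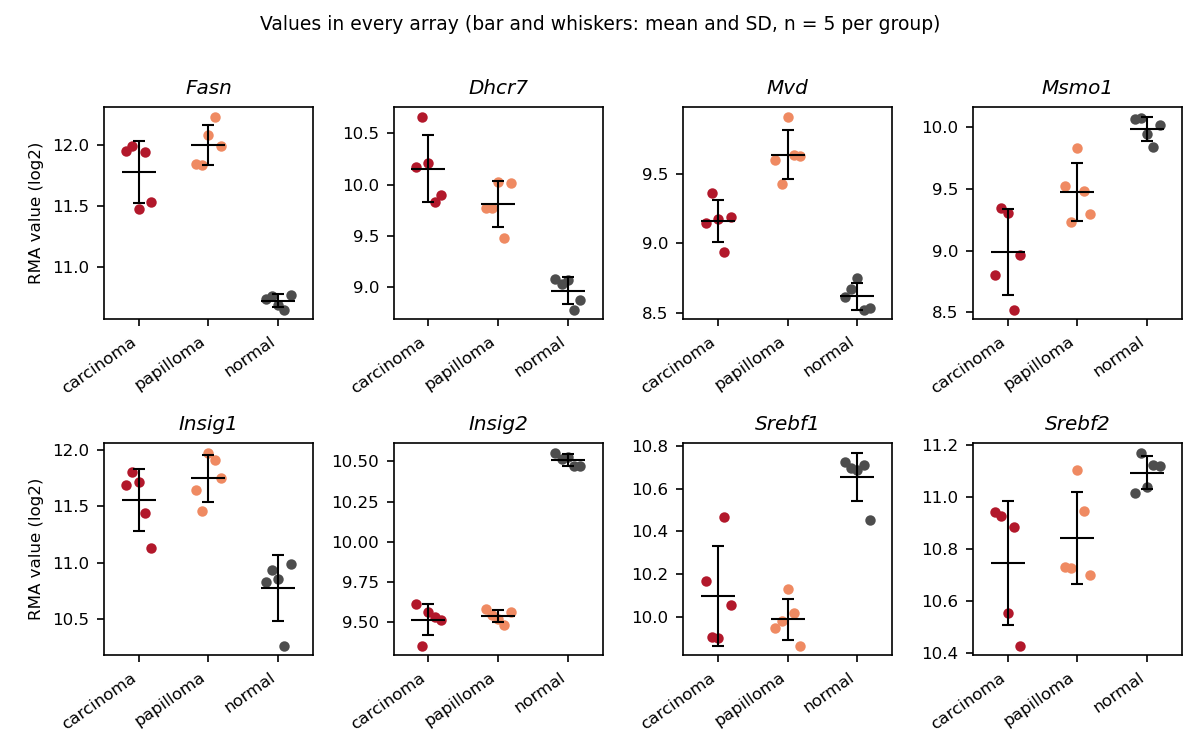
RMA log2 values on all 15 arrays for 8 genes, with carcinoma, papilloma and normal tissue from left to right (points are arrays, bars and whiskers the mean and SD, n = 5). Each panel has its own vertical scale, which does not start at 0; the tumours lie above normal tissue for Fasn, Dhcr7, Mvd and Insig1 and below it for Insig2 and Msmo1, with no overlap.

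From acetyl-CoA to squalene, Mvd and Fdft1 rose in both tumour types, while Pmvk fell in both, and Hmgcs1 and Mvk fell in carcinoma. Of 7 genes measured, 2 were higher (28.6%) and 3 lower (42.9%) in carcinoma, and 2 were higher (28.6%) and 1 lower (14.3%) in papilloma. The shares of all genes were 18.7% higher and 19.2% lower in carcinoma, and 17.0% and 16.3% in papilloma. Mvd, the decarboxylase that makes isopentenyl diphosphate, stood at 9.15, 9.36, 9.17, 8.94 and 9.19 in carcinomas and at 9.60, 9.42, 9.91, 9.63 and 9.63 in papillomas, against 8.62, 8.67, 8.75, 8.52 and 8.54 in normal tissue. The 3 groups were fully separate, with papillomas on top. Mvd rose by 0.54 in carcinoma (SE 0.09, adjusted p = 0.000206) and by 1.02 in papilloma (SE 0.09, 2.03-fold, adjusted p = 3.96e-07). Fdft1, the squalene synthase that commits the pathway to sterols, rose by 0.31 in carcinoma (adjusted p = 0.0123) and by 0.43 in papilloma (adjusted p = 0.00144), and no tumour array overlapped the normal arrays.

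Pmvk, the kinase just before Mvd, fell by 0.36 in carcinoma (adjusted p = 0.00603) and by 0.31 in papilloma (adjusted p = 0.0191). The papilloma change of Pmvk was not called without papilloma array 1 (-0.27, adjusted p = 0.051). Mvk, the mevalonate kinase, fell by 0.21 in carcinoma (adjusted p = 0.0432) and differed by 0.18 in papilloma (adjusted p = 0.0981). Mvk lost its carcinoma call with any 1 of 10 arrays left out, which were carcinoma arrays 2, 4 and 5, papilloma arrays 1, 2 and 4, and normal arrays 1, 3, 4 and 5 (-0.22 to -0.18, adjusted p = 0.0503 to 0.101). Hmgcs1, the synthase at the entry to the mevalonate pathway, measured 10.86 ± 0.53 in carcinoma and 10.97 ± 0.17 in papilloma, against 11.43 ± 0.18 in normal tissue (SD, n = 5 each). It fell by 0.57 in carcinoma (SE 0.20, adjusted p = 0.0312), where values ran from 9.996 to 11.33, and the change was not called when carcinoma array 5 or 1 of normal arrays 1, 2 and 5 was left out (-0.56 to -0.50, adjusted p = 0.0549 to 0.0776). In papilloma the change of Hmgcs1 was -0.45 (adjusted p = 0.09), although its papillomas, at 10.81 to 11.17, were all below the normal arrays, at 11.25 to 11.68. It passed the threshold without carcinoma array 4, the lowest of the 15 (adjusted p = 0.0072).

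The branch enzymes were not called. Fdps, which makes farnesyl diphosphate, differed by -0.23 in carcinoma (adjusted p = 0.237) and by -0.26 in papilloma (adjusted p = 0.193). Ggps1, which makes the geranylgeranyl diphosphate used to modify proteins, was at 11.20, 11.05, 10.91, 10.74 and 10.90 in carcinomas and at 11.05, 11.04, 11.10, 10.95 and 11.07 in papillomas, against 11.11, 11.19, 11.18, 11.13 and 11.05 in normal tissue. The groups overlapped, and the changes were -0.17 (adjusted p = 0.0929) in carcinoma and -0.10 (adjusted p = 0.407) in papilloma. Without carcinoma array 1 the carcinoma change of Ggps1 passed the threshold (-0.23, adjusted p = 0.0178).

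Between squalene and cholesterol, Dhcr7 and Hsd17b7 rose and Tm7sf2 and Msmo1 fell in both tumour types, while Lbr rose in carcinoma and fell in papilloma. Of 11 genes, 3 were higher (27.3%) and 2 lower (18.2%) in carcinoma, and 3 were higher (27.3%) and 6 lower (54.5%) in papilloma. The shares of all genes were 18.7% higher and 19.2% lower in carcinoma, and 17.0% and 16.3% in papilloma. Among the bright genes they were 27.3% and 25.9% in carcinoma, and 24.6% and 22.5% in papilloma, so most of these counts were near such shares. Dhcr7, the reductase that completes cholesterol from its immediate precursor, stood at 10.17, 10.66, 10.21, 9.83 and 9.90 in carcinomas and at 9.77, 9.77, 10.03, 9.48 and 10.02 in papillomas, against 9.08, 9.04, 9.07, 8.78 and 8.87 in normal tissue. All tumours were above all normal arrays. Dhcr7 rose by 1.19 in carcinoma (SE 0.14, 2.28-fold, adjusted p = 6.08e-06) and by 0.85 in papilloma (SE 0.14, 1.80-fold, adjusted p = 0.000211). Msmo1, an oxidase that takes part in the removal of methyl groups from lanosterol-derived sterols, went the other way. It stood at 8.81, 9.35, 9.31, 8.52 and 8.97 in carcinomas and at 9.52, 9.24, 9.83, 9.48 and 9.30 in papillomas, against 10.07, 10.07, 9.95, 9.84 and 10.02 in normal tissue. Msmo1 fell by 1.001 in carcinoma (SE 0.15, adjusted p = 4.25e-05) and by 0.52 in papilloma (SE 0.15, adjusted p = 0.0117). It lies on chromosome 8, where the median shift of all genes had a median of -0.11 over the 5 carcinomas, and with such shifts removed its carcinoma change was -0.89 (adjusted p = 4.82e-05).

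Hsd17b7, a ketosterol reductase of the same demethylation complex, rose by 0.46 in papilloma (adjusted p = 0.00983) and by 0.38 in carcinoma (adjusted p = 0.0278). The carcinoma change was not called when 1 of carcinoma arrays 1, 2 and 3 or normal arrays 2, 4 and 5 was left out (0.29 to 0.37, adjusted p = 0.0512 to 0.0773). Nsdhl, the X-linked dehydrogenase of that complex, was not called (0.10, adjusted p = 0.516 in carcinoma, and 0.22, adjusted p = 0.142 in papilloma). Cyp51, the demethylase that acts on lanosterol, rose by 0.59 in papilloma (adjusted p = 0.00526). In carcinoma it differed by 0.38 (adjusted p = 0.0525), just short of the threshold, and was called when carcinoma array 4, carcinoma array 5, papilloma array 3 or normal array 2 was left out (0.38 to 0.48, adjusted p = 0.0155 to 0.0476).

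Tm7sf2 and Lbr encode reductases that can carry out the same step, and they parted in carcinoma. Tm7sf2 measured 7.96 ± 0.32 in carcinoma and 8.31 ± 0.09 in papilloma, against 8.74 ± 0.05 in normal tissue (SD, n = 5 each), with no overlap between tumour and normal arrays. It fell by 0.78 in carcinoma (SE 0.12, adjusted p = 5.48e-05) and by 0.43 in papilloma (SE 0.12, adjusted p = 0.00885). Lbr, which also encodes an inner nuclear membrane protein that binds lamin B, measured 9.79 ± 0.24 in carcinoma and 9.17 ± 0.09 in papilloma, against 9.49 ± 0.14 in normal tissue. It rose by 0.30 in carcinoma (adjusted p = 0.0346) and fell by 0.32 in papilloma (adjusted p = 0.0258). Lbr lost its carcinoma call when 1 of carcinoma arrays 1 and 4 or normal arrays 1, 3 and 4 was left out (0.23 to 0.29, adjusted p = 0.0693 to 0.0944). It lost its papilloma call when papilloma array 5 or 1 of normal arrays 2 and 5 was left out (-0.29 to -0.28, adjusted p = 0.0653 to 0.0713).

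Ebp and Sc5d, an isomerase and a desaturase of the late steps, fell in papilloma by 0.64 (adjusted p = 0.00176) and by 0.44 (adjusted p = 0.00265), with no overlap of arrays. In carcinoma they differed by -0.27 (adjusted p = 0.137) for Ebp and -0.19 (adjusted p = 0.161) for Sc5d, and Ebp passed the threshold without carcinoma array 2 (-0.37, adjusted p = 0.0379). Ebp is X-linked. Sqle, the squalene epoxidase, fell by 0.26 in papilloma (adjusted p = 0.0338) and differed by -0.08 in carcinoma (adjusted p = 0.559). Sqle was not called when 1 of papilloma arrays 1, 2 and 5 or normal arrays 1, 2 and 3 was left out (-0.26 to -0.23, adjusted p = 0.0671 to 0.0878). Lss, the cyclase that makes lanosterol, was, with Scap and Ggps1, among the 3 genes with the smallest changes from normal tissue. Lss was at 9.62, 9.36, 9.34, 9.49 and 9.50 in carcinomas and at 9.55, 9.50, 9.69, 9.58 and 9.55 in papillomas, against 9.32, 9.52, 9.50, 9.36 and 9.40 in normal tissue (0.04, adjusted p = 0.678, and 0.15, adjusted p = 0.106).

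In the sterol-sensing system, Insig1 rose and Insig2 fell in both tumour types, and both SREBP genes fell in carcinoma. Insig1, whose protein retains Scap when sterols are high and which is itself a target of SREBPs, stood at 11.69, 11.80, 11.71, 11.44 and 11.13 in carcinomas and at 11.64, 11.46, 11.98, 11.91 and 11.75 in papillomas, against 10.83, 10.93, 10.86, 10.26 and 10.98 in normal tissue. All tumours were above all normal arrays, and normal array 4 was the lowest of the 15. Insig1 rose by 0.78 in carcinoma (SE 0.15, 1.72-fold, adjusted p = 0.00063) and by 0.97 in papilloma (SE 0.15, 1.97-fold, adjusted p = 0.000102). Insig2, its paralogue with the same retention role, stood at 9.61, 9.35, 9.57, 9.53 and 9.51 in carcinomas and at 9.58, 9.54, 9.52, 9.48 and 9.56 in papillomas, against 10.55, 10.52, 10.52, 10.47 and 10.47 in normal tissue. The arrays within each group were tight and the gap between tumours and normal tissue was wide. Insig2 fell by 0.99 in carcinoma (SE 0.06, adjusted p = 3.68e-09) and by 0.97 in papilloma (SE 0.06, adjusted p = 4.97e-09), the smallest adjusted p of the 31 genes in both comparisons.

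Srebf1 stood at 10.17, 9.91, 9.90, 10.47 and 10.05 in carcinomas and at 9.95, 9.98, 10.13, 10.02 and 9.86 in papillomas, against 10.73, 10.70, 10.69, 10.71 and 10.45 in normal tissue. Papillomas were all below normal tissue, while carcinoma array 4 and normal array 5 met. Srebf1 fell by 0.67 in papilloma (SE 0.10, adjusted p = 7.71e-05) and by 0.56 in carcinoma (SE 0.10, adjusted p = 0.000352). The probe set was not used to tell its transcript isoforms apart. Srebf2 stood at 10.94, 10.93, 10.55, 10.88 and 10.43 in carcinomas and at 10.73, 10.73, 11.10, 10.94 and 10.70 in papillomas, against 11.01, 11.17, 11.04, 11.12 and 11.12 in normal tissue. It fell by 0.35 in carcinoma (adjusted p = 0.0192), which was not called once carcinoma array 3 or 5 was removed (-0.30 to -0.27, adjusted p = 0.0506 to 0.0517). In papilloma it differed by -0.25 (adjusted p = 0.094), and passed the threshold without papilloma array 3 (-0.32, adjusted p = 0.0376).

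Scap, the escort of the SREBPs, was at 10.23, 10.11, 10.17, 10.16 and 10.31 in carcinomas and at 10.21, 10.18, 10.18, 10.17 and 10.17 in papillomas, against 10.03, 10.03, 10.11, 10.10 and 10.14 in normal tissue. The papillomas lay just above the normal arrays, and neither change passed the threshold (0.11, adjusted p = 0.138 in carcinoma, and 0.10, adjusted p = 0.209 in papilloma). A second, dim probe set of Scap near the array median differed by -0.03 in carcinoma and 0.09 in papilloma. Stard4, a carrier of cholesterol in the cytosol, rose by 0.53 in carcinoma (SE 0.17, adjusted p = 0.0202) and differed by 0.24 in papilloma (adjusted p = 0.326). It was not called once carcinoma array 2 or 4 was removed (0.41 to 0.48, adjusted p = 0.0503 to 0.0522).

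Promoter sequences were available from RefSeq (GRCm38.p6) for 25 of the 31 genes, as 33 windows of 300 bases that run from 250 bases before a transcript start to 50 after it. The letters TCACNCCAC, a form of the sterol regulatory element bound by SREBPs, were found on either strand in 1 of the 33 windows (3.03%), that of Hmgcs1, and in 1.24% of all 32851 windows. CACGTG, the E-box that Myc with Max can bind, was in 6 of 33 windows (18.2%) of Dhcr7, Hsd17b7, Insig1, Sc5d and Scap, against 7.15% of all windows and 7.84% of those of protein-coding genes. The 2 windows of Scap overlap and hold the same E-box, at 28 and at -40 from their starts, so the 6 windows hold 5 separate sites. CCAAT, the box bound by NF-Y, a common partner of SREBPs, was in 22 of 33 windows (66.7%), against 37.4% of all windows and 38.2% of those of protein-coding genes. No match of one motif overlapped a match of another in these 33 windows. The genes with an E-box in the window were Dhcr7, Hsd17b7 and Insig1, which rose in both tumour types, Sc5d, which fell in papilloma, and Scap, which was called in neither. A match is only a description of the letters and is not evidence of binding. The windows of the opposed pair Insig1 and Insig2, of Fasn and of Hmgcs1 are printed on the gene's strand, with matches to the 3 motifs on either strand in capitals. For Insig2 the window with the farthest upstream start of 3 is shown, and the other 2 held no match.
Insig1 (chr5:28071162-28071461, plus strand): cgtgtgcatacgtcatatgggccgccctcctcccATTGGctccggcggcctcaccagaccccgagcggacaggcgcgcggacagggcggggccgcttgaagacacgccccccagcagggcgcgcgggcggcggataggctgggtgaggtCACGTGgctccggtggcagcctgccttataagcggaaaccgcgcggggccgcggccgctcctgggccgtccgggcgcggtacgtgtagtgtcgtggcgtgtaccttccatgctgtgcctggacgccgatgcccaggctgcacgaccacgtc
Insig2 (chr1:121332540-121332839, minus strand): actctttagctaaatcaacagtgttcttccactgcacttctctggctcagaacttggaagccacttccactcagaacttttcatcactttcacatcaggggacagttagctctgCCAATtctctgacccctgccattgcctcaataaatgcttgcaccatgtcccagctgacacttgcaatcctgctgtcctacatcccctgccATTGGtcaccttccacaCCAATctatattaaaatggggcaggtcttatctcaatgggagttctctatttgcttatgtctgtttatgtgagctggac
Fasn (chr11:120824498-120824797, minus strand): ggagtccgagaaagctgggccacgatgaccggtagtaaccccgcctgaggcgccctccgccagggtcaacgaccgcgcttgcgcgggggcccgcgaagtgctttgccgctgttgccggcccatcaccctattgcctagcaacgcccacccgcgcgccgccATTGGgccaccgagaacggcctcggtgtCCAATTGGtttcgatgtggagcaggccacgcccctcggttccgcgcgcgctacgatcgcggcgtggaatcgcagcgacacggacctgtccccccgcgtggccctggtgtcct
Hmgcs1 (chr13:119690101-119690400, plus strand): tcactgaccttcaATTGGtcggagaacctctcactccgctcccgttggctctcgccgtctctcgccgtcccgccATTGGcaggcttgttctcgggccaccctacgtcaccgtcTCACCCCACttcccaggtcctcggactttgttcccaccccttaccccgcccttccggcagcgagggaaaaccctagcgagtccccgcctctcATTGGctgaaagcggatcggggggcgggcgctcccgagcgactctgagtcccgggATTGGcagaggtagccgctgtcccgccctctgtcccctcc
Among these 4 windows the E-box lies in that of Insig1, at -101 from the start, and the sterol regulatory element lies in that of Hmgcs1, at -137, while CCAAT or its complement occurs in all of them.

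Carcinoma and papilloma differed from each other in 5 of the 31 genes, 1 higher and 4 lower in carcinoma. Of all genes, 6.24% were higher and 5.17% lower in carcinoma than in papilloma, and among the bright genes 9.22% were higher and 7.55% lower. Without overlap of arrays, 4.52% of all genes were higher and 3.39% lower. Lbr was 0.62 higher in carcinoma (SE 0.11, 1.54-fold, adjusted p = 0.00131), at 9.52 to 10.06 in carcinomas against 9.04 to 9.28 in papillomas. Mvd was lower in carcinoma by 0.48 (-0.48, SE 0.09, adjusted p = 0.00379), and so was Elovl6 (-0.45, SE 0.10, adjusted p = 0.009). Mvd lies on chromosome 8, like Msmo1, and with chromosome-wide shifts removed its difference was -0.34 (adjusted p = 0.0147). Mvk was also lower in carcinoma (-0.38, SE 0.08, adjusted p = 0.00428), at 9.12 to 9.36 in carcinomas against 9.48 to 9.84 in papillomas. The arrays of these 4 genes did not overlap between the tumour types. Msmo1 was lower as well (-0.49, adjusted p = 0.0431), but its arrays overlapped, and the call ended with chromosome-wide shifts removed (-0.35, adjusted p = 0.106). Leaving out any 1 of the 5 normal arrays, of carcinoma arrays 1, 4 and 5 or of papilloma arrays 1, 3 and 4 also ended it (-0.49 to -0.37, adjusted p = 0.0533 to 0.114). Without carcinoma array 5, Ebp (0.50, adjusted p = 0.00456) and Stard4 (0.44, adjusted p = 0.0462) were also higher in carcinoma, which made 3 genes higher. Tm7sf2 passed the threshold without carcinoma array 4 (-0.46, adjusted p = 0.00435) and Acly without carcinoma array 2 (-0.43, adjusted p = 0.0257). Fasn, Insig1, Insig2 and Acaca showed differences of -0.22, -0.19, -0.02 and -0.02 between the tumour types, none past the threshold (adjusted p = 0.236, 0.486, 0.865 and 0.916).

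The 31 genes varied more between carcinomas than between papillomas or normal samples, with a median SD of 0.24 in carcinoma and 0.13 in papilloma, against 0.09 in normal tissue. Over all genes the median SD was 0.19 in carcinoma and 0.15 in papilloma, against 0.12 in normal tissue. Normal arrays 2 to 5 held both Xist and Y-linked transcripts, unlike any tumour array, so each may hold RNA of more than 1 mouse. The SD of normal tissue may therefore not be a spread between single mice, which was not tested. The same limit holds for each SE and adjusted p against normal tissue, which rest partly on that spread. Hmgcs1 had the largest SD in carcinoma (0.53), Stard4 in papilloma (0.27) and Insig1 in normal tissue (0.29). The mean over the 18 sterol enzymes was 9.94, 10.05, 9.90, 9.74 and 9.61 in carcinoma arrays 1 to 5 and 9.87, 9.83, 10.08, 9.87 and 9.81 in papillomas, against 9.90, 9.96, 9.88, 9.80 and 9.88 in normal tissue. The groups overlapped, and carcinoma array 5 was the lowest of all. The mean over the 7 fatty acid synthesis genes was 11.59 to 12.02 in carcinomas and 11.93 to 12.12 in papillomas, against 11.64 to 11.75 in normal tissue, with all papillomas above and carcinoma array 5 below the normal arrays.

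**Figure D3:**
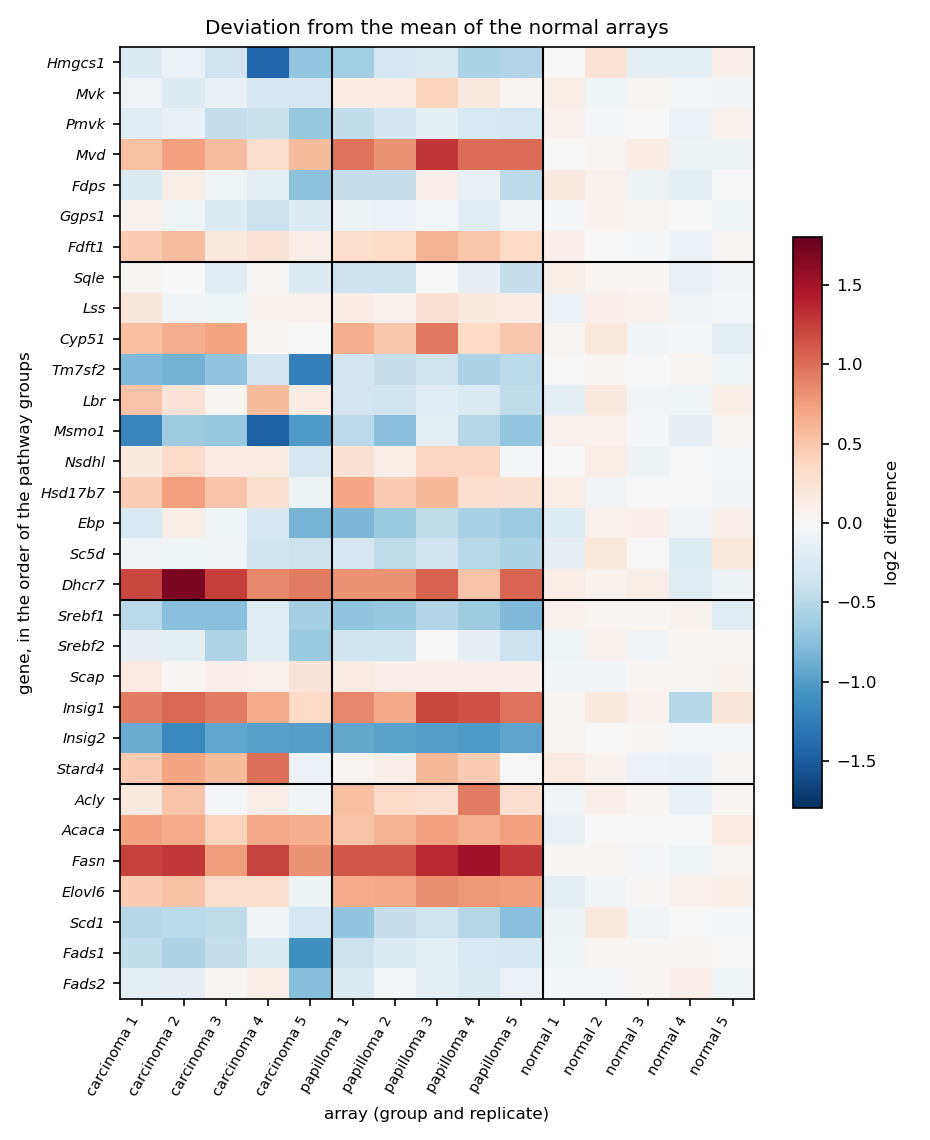
Log2 deviation of each of the 31 genes (rows, in pathway order) from the mean of the 5 normal arrays, for all 15 arrays (columns, carcinoma, papilloma and normal from left to right). Red is higher and blue lower; Fasn, Dhcr7, Mvd and Insig1 form red rows and Insig2 and Msmo1 blue rows across the tumour arrays, and carcinoma array 5 is bluest for Fads1, Fads2 and Tm7sf2.

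Genes around these pathways were counted from lists of related function, chosen with earlier results of these data known. Their counts stand against 18.7% higher and 19.2% lower of all genes in carcinoma, and 17.0% higher and 16.3% lower in papilloma. Among the bright genes these shares were 27.3% and 25.9% in carcinoma, and 24.6% and 22.5% in papilloma. Of 13 sterol uptake and transport genes, 3 were higher (23.1%) and 7 lower (53.8%) in carcinoma, and 2 were higher (15.4%) and 8 lower (61.5%) in papilloma. Vldlr, a lipoprotein receptor, fell by 1.27 in carcinoma (adjusted p = 0.000224) and by 1.75 in papilloma (adjusted p = 1.22e-05). Lrp1, another receptor of this family, fell by 1.13 in carcinoma (adjusted p = 4.92e-06) and fell by 1.07 in papilloma (adjusted p = 1.1e-05). Lrp8 fell by 0.66 in carcinoma (adjusted p = 0.0052) and fell by 1.09 in papilloma (adjusted p = 8.76e-05). Lrp2, at 7.19 to 7.80 in carcinomas against 6.43 to 6.64 in normal tissue, rose in carcinoma (adjusted p = 4.94e-06), with normal values below every array median. Stard5 rose by 0.86 in carcinoma (adjusted p = 1.34e-06) and by 0.67 in papilloma (adjusted p = 2.52e-05). Scarb1, the receptor of high-density lipoprotein, rose by 0.75 in carcinoma (adjusted p = 4.7e-06) and by 0.74 in papilloma (adjusted p = 6.77e-06). Of 13 genes of sterol efflux, esterification and oxysterols, 1 was higher (7.69%) and 7 lower (53.8%) in carcinoma, and 1 was higher (7.69%) and 8 lower (61.5%) in papilloma. The lipoprotein gene Apod fell by 2.38 in carcinoma (adjusted p = 0.00157) and fell by 2.27 in papilloma (adjusted p = 0.00262). The phospholipid transfer protein gene Pltp fell by 1.998 in carcinoma (adjusted p = 0.000661) and fell by 4.17 in papilloma (adjusted p = 5.11e-07). Cyp7b1, an oxysterol hydroxylase, rose by 0.90 in carcinoma (adjusted p = 1.11e-05) and by 1.12 in papilloma (adjusted p = 1.34e-06).

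Among genes of fatty acid elongation, desaturation and activation beside the 31, 7 were higher and 7 lower of 23 in carcinoma, and 6 were higher and 5 lower in papilloma. Thrsp, a regulator of lipogenesis, measured 8.94 ± 0.32 in carcinoma and 9.66 ± 0.34 in papilloma, against 6.999 ± 0.192 in normal tissue (SD, n = 5 each). Its normal arrays, at 6.74 to 7.28, lay around the array medians. Thrsp rose by 1.94 in carcinoma (adjusted p = 2.13e-07) and by 2.66 in papilloma (adjusted p = 8.1e-09), and was lower in carcinoma than in papilloma (-0.72, adjusted p = 0.0126). Acsl5, which activates fatty acids with coenzyme A, rose by 1.93 in carcinoma (adjusted p = 3.42e-07) and by 2.35 in papilloma (adjusted p = 4.7e-08). The elongase gene Elovl5 fell by 0.91 in carcinoma (adjusted p = 0.000193) and by 1.05 in papilloma (adjusted p = 5.95e-05). The desaturase gene Scd4 was at 5.83 to 6.32 in carcinomas and 5.51 to 6.24 in papillomas, against 6.89 to 7.16 in normal tissue (adjusted p = 2.56e-05 in carcinoma and 1.46e-06 in papilloma). All its tumour values were below every array median, and no size is given.

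Of 9 genes that supply acetyl-CoA and NADPH, 3 were higher and 2 lower in carcinoma, and 3 were higher and 3 lower in papilloma. The acetyl-CoA synthetases parted, with the mitochondrial Acss1 up by 0.91 in carcinoma (adjusted p = 2.51e-06) and 1.27 in papilloma (adjusted p = 7.71e-08), while the cytosolic Acss2 fell by 1.21 in carcinoma (adjusted p = 5.54e-06) and by 0.80 in papilloma (adjusted p = 0.000388). Among 9 genes of SREBP proteolysis and sterol-gated degradation, Erlin1 rose by 1.05 in carcinoma (adjusted p = 9.82e-06) and by 0.55 in papilloma (adjusted p = 0.0039). Its partner in the endoplasmic reticulum, Erlin2, fell by 1.71 in carcinoma (adjusted p = 9.52e-09) and by 1.55 in papilloma (adjusted p = 3.07e-08). In that list 1 gene was higher and 1 lower in carcinoma, and 2 were higher and 1 lower in papilloma. Other sterol and isoprenoid enzymes showed 2 higher and 2 lower of 12 in carcinoma and 3 higher and 1 lower in papilloma. Acat1, a mitochondrial thiolase, rose by 0.69 in carcinoma (adjusted p = 5.25e-06) and by 0.73 in papilloma (adjusted p = 3.39e-06), and Icmt, which methylates prenylated proteins, fell by 0.94 (adjusted p = 1.68e-06) and 0.78 (adjusted p = 1.57e-05).

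Of 15 fatty acid oxidation genes, 5 were higher (33.3%) and 2 lower (13.3%) in carcinoma, and 7 were higher (46.7%) and 1 lower (6.67%) in papilloma. Their higher share in carcinoma was near the 27.3% of the bright genes. The isomerase gene Eci1 rose by 0.55 in carcinoma (adjusted p = 5.22e-05) and the dehydrogenase gene Hadh by 0.60 in papilloma (adjusted p = 3.7e-06), while the receptor gene Ppara fell by 0.34 in carcinoma (adjusted p = 0.011) and by 0.51 in papilloma (adjusted p = 0.000567). Lipid droplet and fatty acid binding genes were 6 higher and 4 lower of 15 in carcinoma and 7 higher and 4 lower in papilloma. Fabp4, a fatty acid binding protein, measured 7.78 ± 1.24 in carcinoma and 9.78 ± 0.53 in papilloma, against 5.83 ± 0.39 in normal tissue (SD, n = 5 each). It rose in carcinoma (adjusted p = 0.0028) and in papilloma (adjusted p = 4.71e-06). Carcinoma array 2, at 5.68, lay within the normal range. The normal arrays of Fabp4, at 5.30 to 6.33, were below every array median, so the size of its rise is not given. Lpl, the lipoprotein lipase, rose by 3.23 in papilloma (adjusted p = 0.000161) and by 1.46 in carcinoma (adjusted p = 0.0406). Cd36, a fatty acid transporter, was at 5.76 to 6.25 in carcinomas and 7.05 to 8.52 in papillomas, against 5.83 to 6.19 in normal tissue. Cd36 rose in papilloma (adjusted p = 9.42e-06) and was not called in carcinoma (adjusted p = 0.51). It was lower in carcinoma than in papilloma (adjusted p = 5.73e-05). Its carcinoma and normal values were below every array median, and no size is given.

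**Figure D4:**
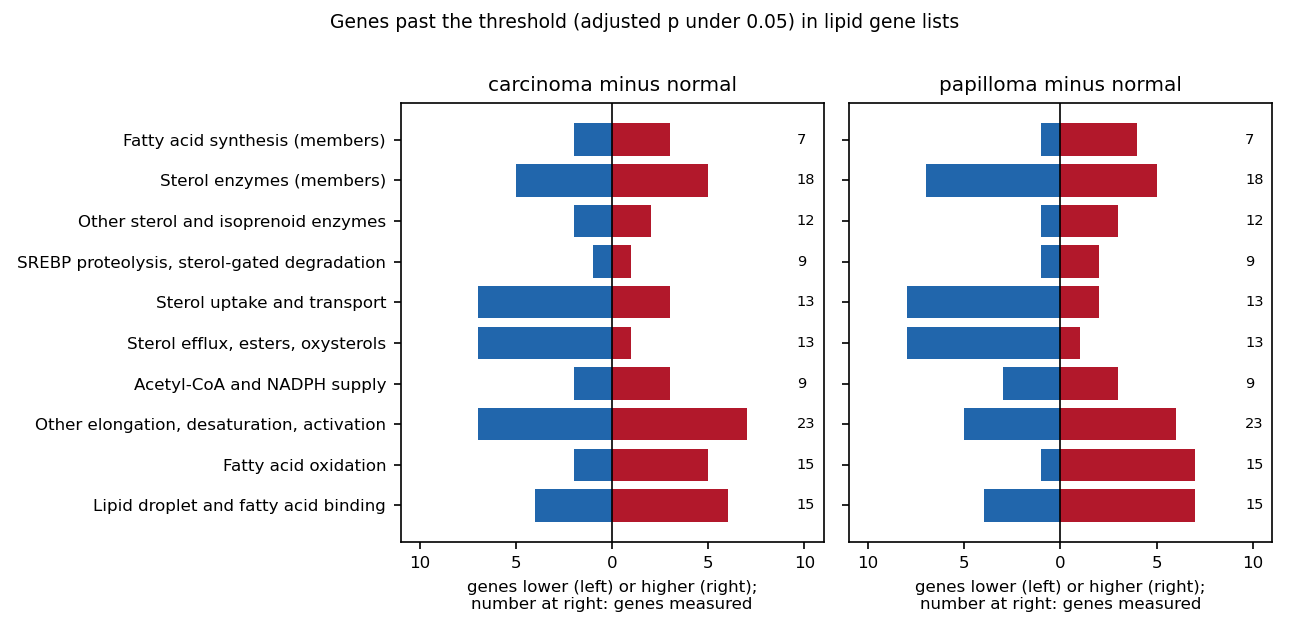
Number of genes past the threshold in 10 lipid gene lists, for carcinoma minus normal and papilloma minus normal (bars to the right count higher genes, bars to the left lower genes, the number at the right edge gives the genes measured). In carcinoma the sterol uptake list shows 3 higher and 7 lower genes of 13, the sterol efflux list 1 and 7 of 13, and the fatty acid oxidation list 5 and 2 of 15.

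Markers of other cell types, and of multiciliated cells, also differed between groups. The counts called are to be read beside those of all genes, 18.7% higher and 19.2% lower in carcinoma, and 17.0% and 16.3% in papilloma. Among the bright genes the shares were 27.3% and 25.9% in carcinoma, and 24.6% and 22.5% in papilloma. The lists are short, and some counts were near these shares. Myelinating oligodendrocyte markers, from a cell rich in lipid synthesis, were lower for 7 of 8 genes in carcinoma and 5 of 8 in papilloma, and none was called higher. Their mean was 7.38 to 7.92 in carcinomas and 7.43 to 8.14 in papillomas, against 8.34 to 8.72 in normal tissue. Fibroblast and meningeal markers were lower for 5 of 7 genes in carcinoma and 6 of 7 in papilloma, with means of 7.99 to 8.37 in carcinomas and 7.74 to 8.29 in papillomas, against 9.64 to 9.80 in normal tissue. Multiciliated cell markers were lower for 5 of 5 genes in both tumour types, at 7.13 to 8.37 in carcinomas and 7.04 to 7.21 in papillomas, against 10.43 to 10.54 in normal tissue. These markers need not come from a cell type apart from the choroid plexus epithelium. Neuron markers were lower for 4 of 6 genes in carcinoma and 1 of 6 in papilloma. Their mean was 7.46 to 8.17 in carcinomas and 7.44 to 7.87 in papilloma arrays 1, 3 and 5, but 10.02 and 9.07 in papilloma arrays 2 and 4, against 8.76 to 9.32 in normal tissue. Endothelial markers were higher for 3 of 6 genes in carcinoma, and in papilloma 3 were higher and 1 lower. Macrophage markers averaged 8.70 to 9.51 in carcinomas and 8.49 to 8.68 in papillomas, against 8.28 to 8.53 in normal tissue, with 2 of 9 higher and 1 lower in carcinoma and 1 higher and 1 lower in papilloma. Gpnmb weighs heavily in this mean, at 11.49 to 13.61 in carcinomas and 10.83 to 12.17 in papillomas, against 7.96 to 8.51 in normal tissue. Changes were negative for 7 of the 9 markers in papilloma (median -0.09) and for 4 in carcinoma (median 0.13). Astrocyte markers averaged 8.51 to 9.54 in carcinomas and 8.65 to 9.90 in papillomas, against 8.77 to 9.52 in normal tissue, with 2 of 6 higher and 1 lower in carcinoma and 2 higher in papilloma. The part of these cell types in the changes of the lipid genes was not tested, and in whole tissue fewer cells of a type and less RNA per cell cannot be told apart. Adipocyte markers averaged 6.34 to 6.56 in carcinomas and 6.37 to 6.63 in papillomas, against 6.40 to 6.61 in normal tissue, below the array medians in every group, and 0 of 5 were called by limma in either tumour type.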

How the data were processed

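Total RNA from 15 snap-frozen tissues was hybridised to single-colour GeneChip arrays. The deposited values are log2 RMA summaries per probe set, made by the authors with Affymetrix Expression Console, per the submitters' processing notes; the version and the genome build are not given in the sources used here. RMA forces arrays to a shared distribution, so a change in total RNA is removed and differences between weak signals are shrunk. Arrays have no read depth, and their number limits the precision.

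Of 41345 probe sets, 190 were controls, 23521 were paired with 1 gene symbol, 1814 with several and 16010 with none. The probe set with the highest mean stood for each gene, which left 22180 genes. Group differences were fitted by limma (version 3.58.1, R 4.3.3), with group as the only term over all 15 arrays (12 residual degrees of freedom), two-sided, with Benjamini-Hochberg adjustment over all 22180 genes and a threshold of 0.05. The fit was checked on simulated data. Groups came from the sample titles. The alternatives were a replicate block, a variance trend, array weights, only the groups compared, quantile normalization, a common median, a filter on dim genes, the mean of probe sets, all probe sets, removed chromosome shifts and leaving out each array. The genes and lists were chosen with earlier results of these data known. Every member is named, with values in every array for those with a log2 change of at least 1, for the 3 smallest changes and for the paralogue pairs. Of each related list, up to 2 rises and 2 falls per tumour type are named, and some further values of those genes.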

Additional observations from a re-analysis of the deposited data

Results flagged for a closer look

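Among 93 groups of 5 arrays (31 genes in 3 groups), 4 had an array far from the others by Dixon's ratio of the gap to the range, where chance gives about 1 in 20. Acaca in carcinoma array 3 was at 9.54, with the other carcinomas at 9.80 to 9.87 (ratio 0.793). Scap in papilloma array 1 was at 10.21, with the others at 10.17 to 10.18 (ratio 0.738), a gap that is small in size. Insig1 in normal array 4 was at 10.26, with the others at 10.83 to 10.98 (ratio 0.779). Srebf1 in normal array 5 was at 10.45, with the others at 10.69 to 10.73 (ratio 0.856). The calls of Acaca, Insig1 and Srebf1 in carcinoma and in papilloma kept their direction and their side of the threshold when the array concerned was left out.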

How the results depend on the processing

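Of 93 results (31 genes in 3 comparisons), 67 kept their direction and their side of the threshold in all 26 alternatives, and none changed sign while past the threshold. The count of lower genes in papilloma dropped to 5 when papilloma arrays 2 and 4 were both left out, which was tried only after the data had been seen, and the cause was not tested. Over the other alternatives that keep all 5 arrays of each group compared it was 9 to 13. It was 13 with array quality weights, which added Hmgcs1, Srebf2 and Fads1, and 13 with only the groups compared in the fit. Leaving out 1 array at a time gave 7 to 11 higher and 7 to 11 lower genes in carcinoma, 10 higher and 8 to 11 lower in papilloma, and 1 to 3 higher and 3 to 5 lower in carcinoma against papilloma. Replicate numbers did not pair the arrays. The correlations of same-numbered arrays ran from -0.0962 to 0.136, and an array correlated best with its own number in 6 of 30 cases. With the replicate block, 19, 19 and 5 genes passed the threshold for carcinoma against normal, papilloma against normal and carcinoma against papilloma, and 4 single calls were lost and 2 gained. Scaling to a common median added Lss and Mvk to the genes higher in papilloma. Signals near the array median limit dim genes, but none of the 31 was that dim. Among the related genes, Fabp4, Cd36, Scd4, Lrp2, Elovl3 and Ch25h were below every array median in at least 1 group.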
